A study of Mus musculus with 18 samples.

Results

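The 30 genes described here make cholesterol or handle it, out of 50689 features counted in cultured mouse muscle stem cells. They were taken from the table by symbol: 7 enzymes from acetyl-CoA to farnesyl diphosphate, 11 enzymes from squalene to cholesterol, 5 regulators, and 7 genes of sterol transport, storage and export. Each of the 30 symbols matched 1 row. The rule used no measured value.

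The libraries hold RNA of satellite cells, a stem cell of muscle, taken from the tibialis anterior of C57BL6 mice and proliferating on matrigel in growth medium. The 9 control libraries carry Hoxa10f/f, in which both copies of the transcription factor gene Hoxa10 are flanked by Cre target sites. The 9 scKO libraries are Pax7-CreERT2/+;Hoxa10f/f, with a tamoxifen-dependent Cre driven from the promoter of Pax7, the gene that marks satellite cells, and received 4-hydroxytamoxifen at 1 µM for 2 days. Both groups share the f/f allele. The labels give the controls no 4-hydroxytamoxifen, so loss of Hoxa10, the Cre allele and the drug cannot be told apart. They give neither the age of the animals nor whether each library is its own animal or culture, which means that p-values cover only the spread between these samples.

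Cells build cholesterol from acetyl-CoA by way of mevalonate, the isoprenoid farnesyl diphosphate, squalene and a series of sterols. When sterols in the endoplasmic reticulum are scarce, SCAP carries the SREBP transcription factors to the Golgi, where they are cut free to turn on the genes of synthesis and uptake, and when sterols are plentiful the INSIG proteins hold SCAP back. Oxidised sterols activate the LXR receptors, which turn on exporters such as Abca1 and Abcg1 and the E3 ligase gene Mylip.

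Totals of unique molecular identifiers (UMIs) fell into 2 classes: 5 deep libraries (control 1 and 2, scKO 6, 7 and 9) with 4346150 to 5986128 counts, and 13 shallow ones (7 control, 6 scKO) with 420197 to 968559. Within the shallow class control 7, 8 and 9 and scKO 1 stood apart on the second principal component, which held 14.1% of the variance. Hoxa10 lay at 36.7 and 38.5 CPM (counts scaled to the library total after TMM correction) in the deep controls and at 6.63 to 10.02 CPM in deep scKO. In shallow libraries it lay at 14.9 to 64.7 CPM (median 26.3) in controls and 1.89 to 4.81 CPM (median 3.31) in scKO, with no overlap in either class. All 8 satellite cell markers, among them Pax7, Myod1 and Des, were counted in all 18 libraries, and 1 of them (Myf5) passed, as lower in deep scKO (-0.33, edgeR adjusted p = 0.0350). Deep counts of Myod1 were 3878 to 4027 in controls and 3977 to 4010 in scKO, close to the ceiling set by the number of distinct UMIs. Those of Myog, Des and Itga7 reached 3967, 3596 and 3315. Near that ceiling a change in level barely moves the count, so the deep test cannot tell whether Myod1 and Myog differed. Of 7 adipocyte markers 4 (Plin1, Cidec, Retn and Cfd) were at 0 in every library. The summed levels of 6 lists of markers of other cell types did not pass an exact permutation test within depth classes (two-sided, lowest p = 0.0745 for fibro-adipogenic cells, adjusted 0.447).

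Where the RefSeq table of mouse promoters (GRCm38.p6) held an entry, 24 of the 30 genes, the 250 bases before to 50 after the start were searched on both strands for 3 motifs. The sterol regulatory element TCACNCCAC was present in 1 of the 24 (Hmgcs1), against 1.44% of all 27025 genes in the table. CCAAT, the letters bound by NF-Y, was present in 21 of 24 (87.5%) against 41.1% of all genes. The LXR-type repeat DR4 (searched as GGTNA, 5 bases of any kind and GGTNA) was present in Abca1 and Srebf1, against 0.818% of all genes, and none of the 3 motifs overlapped another in the promoters below. A match is a description of letters, and its absence says only that they are not in that window. The 250 bases before the start are shown 5′ to 3′ on the strand of the gene, in GRCm38.p6 coordinates, with matches in capitals (CCAAT reads ATTGG when it lies on the other strand). Hmgcs1 (chr13:119690101-119690350, plus strand) and Idi1 (chr13:8885356-8885605, plus strand) stand for the early enzymes, Cyp51 (chr5:4104698-4104947, minus strand) and Msmo1 (chr8:64733579-64733828, minus strand) for the late ones, Insig2 (chr1:121332590-121332839, minus strand, 1 of 3 listed starts) for the regulators and Abca1 (chr4:53159896-53160145, minus strand) for export.
Hmgcs1: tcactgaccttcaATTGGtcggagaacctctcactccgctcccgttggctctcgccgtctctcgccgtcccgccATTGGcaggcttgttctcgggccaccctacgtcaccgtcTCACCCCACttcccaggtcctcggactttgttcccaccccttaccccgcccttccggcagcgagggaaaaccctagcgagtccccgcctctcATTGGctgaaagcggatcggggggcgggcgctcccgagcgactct
Idi1: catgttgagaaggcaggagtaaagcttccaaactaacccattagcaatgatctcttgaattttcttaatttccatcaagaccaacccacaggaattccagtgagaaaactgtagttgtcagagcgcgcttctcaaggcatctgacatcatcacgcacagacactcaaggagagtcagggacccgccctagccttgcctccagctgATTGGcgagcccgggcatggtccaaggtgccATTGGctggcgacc
Cyp51: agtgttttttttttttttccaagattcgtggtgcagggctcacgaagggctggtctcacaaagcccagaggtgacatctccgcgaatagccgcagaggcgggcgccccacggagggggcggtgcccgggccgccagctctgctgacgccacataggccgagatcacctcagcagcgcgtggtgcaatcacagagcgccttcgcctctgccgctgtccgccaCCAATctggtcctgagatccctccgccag
Msmo1: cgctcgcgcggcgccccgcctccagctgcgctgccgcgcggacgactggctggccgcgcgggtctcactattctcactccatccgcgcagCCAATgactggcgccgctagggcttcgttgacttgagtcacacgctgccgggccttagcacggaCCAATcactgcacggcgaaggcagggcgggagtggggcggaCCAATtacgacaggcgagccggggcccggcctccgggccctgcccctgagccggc
Insig2: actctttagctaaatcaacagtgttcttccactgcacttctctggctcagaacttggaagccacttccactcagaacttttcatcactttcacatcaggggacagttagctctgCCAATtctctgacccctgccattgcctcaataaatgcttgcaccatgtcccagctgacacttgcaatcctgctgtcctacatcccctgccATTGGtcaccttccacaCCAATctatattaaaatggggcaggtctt
Abca1: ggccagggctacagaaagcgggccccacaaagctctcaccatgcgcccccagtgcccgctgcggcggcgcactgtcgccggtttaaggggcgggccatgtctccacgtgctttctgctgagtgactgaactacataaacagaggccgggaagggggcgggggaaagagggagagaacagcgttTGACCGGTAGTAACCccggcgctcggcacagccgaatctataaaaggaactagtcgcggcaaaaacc
The capitals show 3 matches to CCAAT in Msmo1 and Insig2, 1 in Cyp51 and 2 in Idi1. In Hmgcs1 the sterol regulatory element begins 137 bases before the start, between CCAAT matches, and in Abca1 the LXR-type repeat lies on the other strand, 67 bases before the start.

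In the deep libraries, 4 of the 11 genes of the squalene and sterol steps and the ER retention gene Insig1 passed as lower in scKO, while Insig2 and the exporter gene Abca1 passed as higher. Of the 30 genes, 29 had enough counts there to be tested, and 10 of 29 (34.5%) passed edgeR's quasi-likelihood test at a Benjamini-Hochberg adjusted p under 0.05, 8 lower and 2 higher. Over all 13136 genes tested in those libraries, 14.3% passed in either direction, 7.03% lower and 7.31% higher. In scKO, 13 of the 29 lay below both controls in all 3 libraries, against 21.0% of all genes tested, and 5 lay above, against 24.1%. With 1 deep library left out, 4 (without control 2) to 10 (without control 1) members passed lower, and 1 passed higher without control 1. With all 18 libraries and the depth class as a covariate, 16 members could be tested and 1 passed (Insig2, higher), against 0.326% of 7662 genes higher and 0.352% lower. In that model 4 members had an unadjusted p under 0.05 with a lower level in scKO, against 459 of 7662 genes. None of the 4 passed in edgeR. As lower, DESeq2 called 2 members (Msmo1 and Srebf2), against 225 of 7662 genes, and limma-voom 1 (Msmo1), against 52. In the shallow libraries alone 13 could be tested and 0 passed in edgeR, DESeq2 or limma-voom. By edgeR, 0.0145% of 6906 genes passed lower, 0.0290% higher and 0.0434% in either direction. At an unadjusted p under 0.05 in edgeR there were 3 members, 2 lower and 1 higher, against 216 and 209 of the 6906 genes. RNA was taken from whole cultures, where fewer cells of a type and less RNA per cell cannot be told apart.

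**Figure D1:**
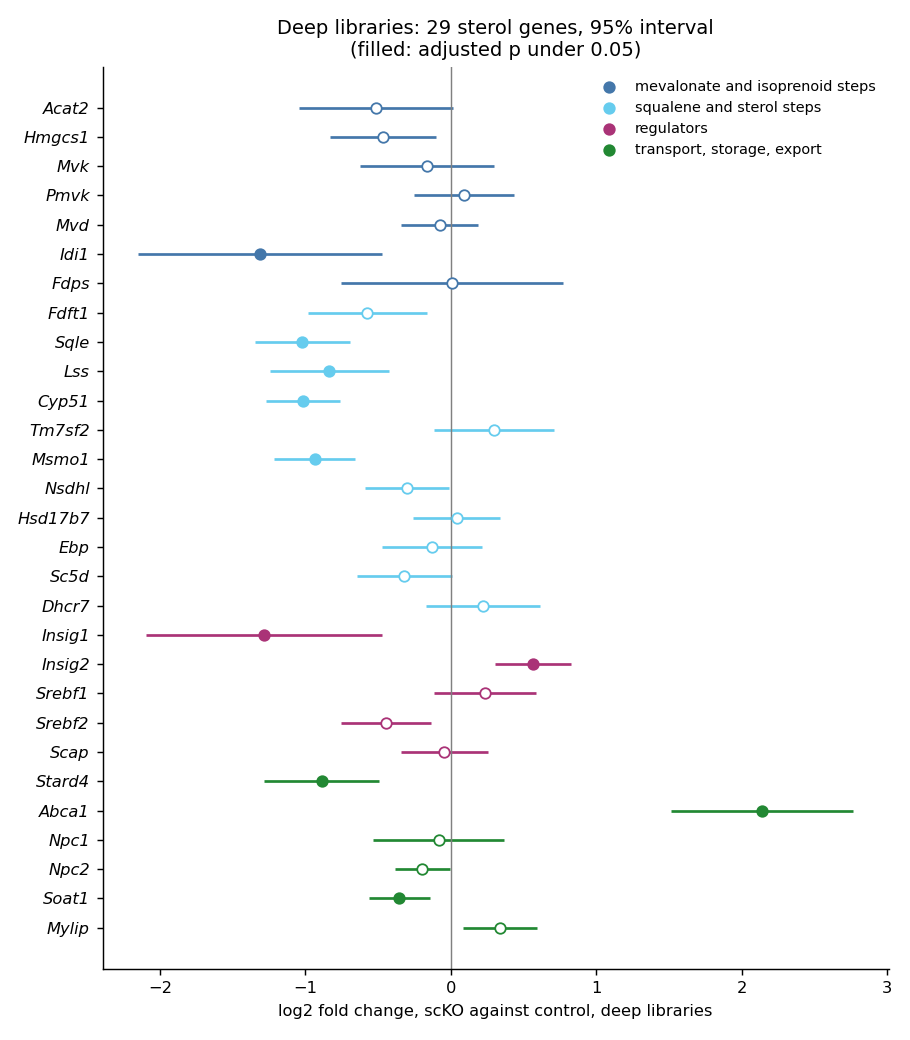
Log2 fold change of scKO against control in the 5 deep libraries for the 29 genes tested, with 95% intervals, coloured by role; filled circles passed edgeR's test at an adjusted p under 0.05. Of the 11 squalene and sterol enzymes Sqle, Lss, Cyp51 and Msmo1 lie between -1.02 and -0.84, and Abca1 stands alone at 2.14.

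The 7 early enzymes make mevalonate from acetyl-CoA and turn it into the isoprenoid units of cholesterol. In the deep libraries 5 of the 7 had a negative log2 fold change, with a median of -0.16, and 1 passed the test. That was Idi1, which interconverts the isoprenoid units IPP and DMAPP, and which lay at 2.28 and 5.16 CPM in control 1 and 2 and at 1.60, 1.85 and 1.24 CPM in scKO 6, 7 and 9. The scKO values were all below the lower control, and rested on 9 to 15 counts each. Idi1 fell by 1.31 on the log2 scale (SE 0.39, edgeR adjusted p = 0.0381), but the call was lost without any one of control 2, scKO 6, scKO 7 or scKO 9, and without control 2 the change was -0.54 (adjusted p = 0.575 in edgeR). Its transcript is matched over 684 bases at 100% identity by the processed pseudogene Gm13502, so its counts are less certain.

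Hmgcs1, the synthase that makes HMG-CoA, lay at 30.2 and 44.8 CPM in the deep controls and at 30.6, 28.2 and 24.3 CPM in deep scKO. The groups overlapped through control 1, and the change of -0.47 on the log2 scale did not pass (SE 0.17, edgeR adjusted p = 0.0822). Acat2, the cytosolic thiolase of the first step, had the same layout, with 27.9 and 47.9 CPM against 29.0, 30.5 and 22.1 CPM (log2 fold change -0.51, edgeR adjusted p = 0.182). Both hinged on which deep library was left out. Hmgcs1 then ran from -0.72 (without control 1) to -0.14, and Acat2 from -0.84 (without control 1) to -0.046. Acat2 shares 1477 bases at 97.7% identity with Acat3, so reads may be split between them. In the shallow libraries Acat2 ran the other way, at 17.98 to 49.2 CPM (median 19.4) in controls and 21.2 to 41.7 CPM (median 30.3) in scKO, with overlap and a change of 0.39 on the log2 scale (edgeR adjusted p = 0.824). The difference between the depth classes for Acat2 was -0.90 (95% interval -1.68 to -0.11), with the lowest p of any member (unadjusted 0.0273, edgeR adjusted p = 0.753). Hmgcs1 lay at 17.98 to 39.4 CPM (median 32.0) in shallow controls and 15.8 to 43.5 CPM (median 23.7) in shallow scKO, also overlapping.

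None of the other early enzymes passed. Mvk, Pmvk and Mvd, the kinases and the decarboxylase that carry mevalonate to IPP, had deep log2 fold changes of -0.16, 0.09 and -0.08, with 95% intervals of -0.62 to 0.30, -0.25 to 0.44 and -0.34 to 0.19. Mvd was counted at 28.99 to 32.9 CPM in all 5 deep libraries, and it shares its locus with Gm20388 on the other strand. Fdps, the farnesyl diphosphate synthase, lay at 1.88 and 2.81 CPM in the deep controls and 1.93 to 2.81 CPM in deep scKO (log2 fold change 0.01, 95% interval -0.75 to 0.77). In the shallow class Fdps had 0 counts over the 7 controls, which allows up to 0.696 CPM (3 counts over the summed scaled totals), and 5 counts over the 6 scKO libraries. The Fdps gene overlaps the gene Gm43738 over 7512 bases on the same strand, so reads may be shared between them.

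The 11 late enzymes form squalene and turn it into cholesterol, and 4 of them fell in the deep libraries: Sqle, Lss, Cyp51 and Msmo1, each by 1.79 to 2.03-fold. Of the 11, 8 had a negative log2 fold change, with a median of -0.32, against a median of -0.0017 over all genes tested. Cyp51, the lanosterol demethylase (ENSMUSG00000001467, chr5:4081145-4104746 in GENCODE M21 on GRCm38), lay at 70.1 and 64.4 CPM in the deep controls and at 38.6, 31.7 and 30.1 CPM in scKO 6, 7 and 9. The highest scKO library was well below the lower control, and Cyp51 fell by 1.02 (SE 0.12, edgeR adjusted p = 0.000281). Msmo1, which oxidises the methyl groups at carbon 4 in the steps that follow (ENSMUSG00000031604, chr8:64718139-64733792), lay at 88.9 and 82.0 CPM against 54.0, 43.4 and 37.7 CPM. The layout was that of Cyp51, with scKO 6 the highest of the scKO libraries, and Msmo1 fell by 0.94 (SE 0.13, edgeR adjusted p = 0.000719). Each call held when any 1 of the 5 deep libraries was left out, with Cyp51 between -1.13 and -0.95 and Msmo1 between -1.08 and -0.83.

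Sqle, the squalene epoxidase that starts the oxygen-dependent part of the pathway (ENSMUSG00000022351, chr15:59315077-59331192), lay at 23.7 and 26.3 CPM in the deep controls and at 13.0, 13.5 and 10.9 CPM in scKO. All 3 scKO libraries were at similar levels, far below the controls, and Sqle fell by 1.02 (SE 0.15, edgeR adjusted p = 0.000945), a call kept in all 5 fits that left out a library. Lss, which closes the rings to lanosterol, lay at 12.3 and 13.6 CPM against 6.28, 7.63 and 8.14 CPM. Its groups were also apart, and Lss fell by 0.84 (SE 0.19, edgeR adjusted p = 0.0106), although without control 2 it no longer passed (-0.75, edgeR adjusted p = 0.0645). Lss is overlapped on the other strand by 4930483K19Rik. Fdft1, the squalene synthase before these steps, lay at 11.9 and 12.7 CPM against 9.89, 7.26 and 8.01 CPM. It did not overlap either, but at -0.57 on the log2 scale it missed the threshold (edgeR adjusted p = 0.0595) except without scKO 6 (-0.70, edgeR adjusted p = 0.0375). Fdft1 shares 1249 bases at 97.4% identity with the pseudogene Gm6781.

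The remaining 6 late enzymes act after Cyp51, and 0 of them passed in edgeR, DESeq2 or limma-voom. Of the 6, 1 (Nsdhl, lower) had an unadjusted p under 0.05 in edgeR, as did 1921 of 13136 genes in the lower direction. Nsdhl, which removes the carboxyl group at carbon 4, and Sc5d, the lathosterol oxidase, lay below both controls in all 3 deep scKO libraries, with log2 fold changes of -0.30 (edgeR adjusted p = 0.151) and -0.32 (edgeR adjusted p = 0.177). The pair of sterol reductases Tm7sf2 and Dhcr7 lay above both controls in all 3, at 0.30 (edgeR adjusted p = 0.330) and 0.22 (edgeR adjusted p = 0.461). The Tm7sf2 gene overlaps Vps51 over 532 bases on the same strand. Hsd17b7 and Ebp, the 3-ketosteroid reductase and the sterol isomerase, overlapped between groups, with 95% intervals of -0.26 to 0.34 and -0.48 to 0.21. The log2 fold changes of these 6 thus ran from -0.32 to 0.30, beside -1.02 to -0.84 for the 4 that fell.

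**Figure D2:**
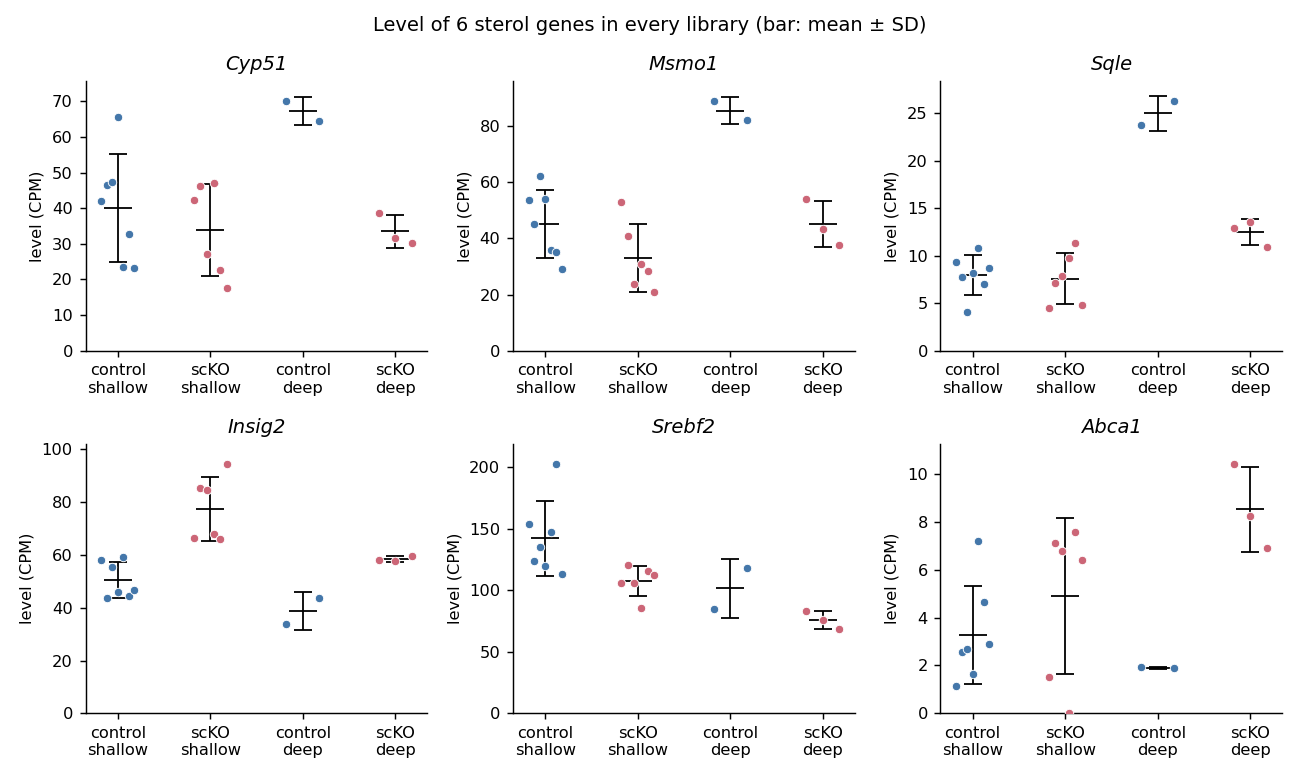
Level in CPM of Cyp51, Msmo1, Sqle, Insig2, Srebf2 and Abca1 in each library (points), with the mean and SD of each group, by depth class. The deep scKO points of Cyp51, Msmo1, Sqle and Srebf2 lie below both deep controls and those of Insig2 and Abca1 above, while in the shallow class the groups are apart only for Insig2.

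In the shallow libraries 4 of the 11 late enzymes could be tested, and none passed. Cyp51 lay at 23.3 to 65.6 CPM (median 41.9) in 7 controls and 17.6 to 47.0 CPM (median 34.7) in 6 scKO libraries, and Msmo1 at 29.1 to 62.2 CPM (median 45.2) and 20.8 to 53.0 CPM (median 29.6). Both overlapped widely, with log2 fold changes of -0.29 (edgeR adjusted p = 0.854) and -0.50 (edgeR adjusted p = 0.810). Part of the width lay in the libraries that stood apart: control 7, 8 and 9 were at 29.1 to 36.0 CPM for Msmo1 and 23.3 to 32.7 CPM for Cyp51, against 45.2 to 62.2 and 41.9 to 65.6 CPM in the other 4 shallow controls. Without them and scKO 1, the shallow changes were -0.91 for Msmo1 (edgeR adjusted p = 0.171) and -0.65 for Cyp51 (edgeR adjusted p = 0.507). Over all depths, Msmo1 went from -0.68 (edgeR adjusted p = 0.0602) to -0.92 (edgeR adjusted p = 0.000174) and Cyp51 from -0.61 (edgeR adjusted p = 0.165) to -0.86 (edgeR adjusted p = 0.00155) when the 4 were left out. Leaving out any one of control 7, control 8, control 9 or scKO 1 was enough for Msmo1 to pass, with adjusted p-values of 0.0390, 0.0442, 0.0463 and 0.00680 in edgeR.

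The difference between the depth classes was tested for 16 members, and 0 of them passed in edgeR, nor did any of 7662 genes, although 170 genes had an unadjusted p under 0.05 with a negative difference and 303 with a positive one. Among members 1 (Acat2) had an unadjusted p under 0.05. For Cyp51 the difference was -0.70 (95% interval -1.48 to 0.07) and for Msmo1 -0.42 (-1.12 to 0.29), so larger and smaller changes in the shallow libraries were both within error. Sqle and Lss were too low to test there: Sqle had 34 counts over the shallow controls and 29 over shallow scKO, and Lss 25 and 23, out of totals of 4813570 and 4359354. Without the filter on low counts, the shallow fit put Sqle at -0.053 (SE 0.43, edgeR adjusted p = 0.977) and Lss at 0.072 (SE 0.49, edgeR adjusted p = 0.977). The fit of all libraries without the filter gave -0.75 for Sqle (edgeR adjusted p = 0.0432) and -0.58 for Lss (edgeR adjusted p = 0.294), beside -1.01 and -0.83 in the deep libraries alone.

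**Figure D3:**
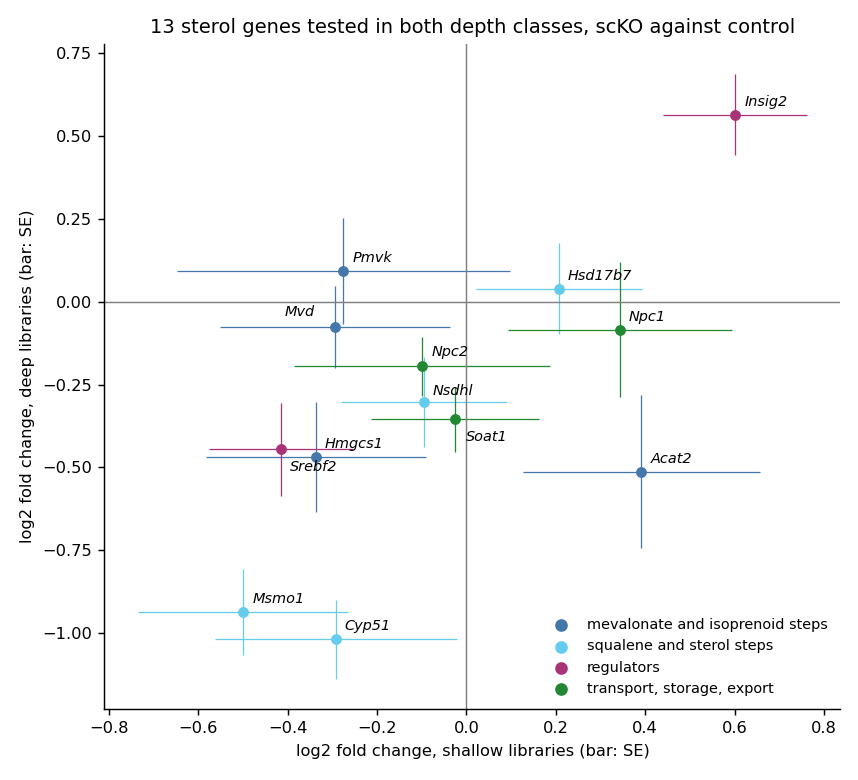
Log2 fold change of scKO against control in the shallow libraries (x axis) and in the deep libraries (y axis) for the 13 genes tested in both, with SE bars. Msmo1, Cyp51, Srebf2 and Hmgcs1 are among those negative in both classes, Insig2 is near 0.6 in both, and Acat2, Pmvk and Npc1 have opposite signs.

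Summed over the 11 late enzymes, the level was 347 and 345 CPM in the deep controls and 249, 242 and 236 CPM in deep scKO. In the shallow class the same sum was 223 to 330 CPM (median 253) in controls and 230 to 283 CPM (median 242) in scKO, so the groups overlapped there. The 7 early enzymes summed to 115 and 159 CPM in the deep controls and 104 to 120 CPM in deep scKO, with overlap through control 1. These sums weigh abundant genes more than rare ones.

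**Figure D4:**
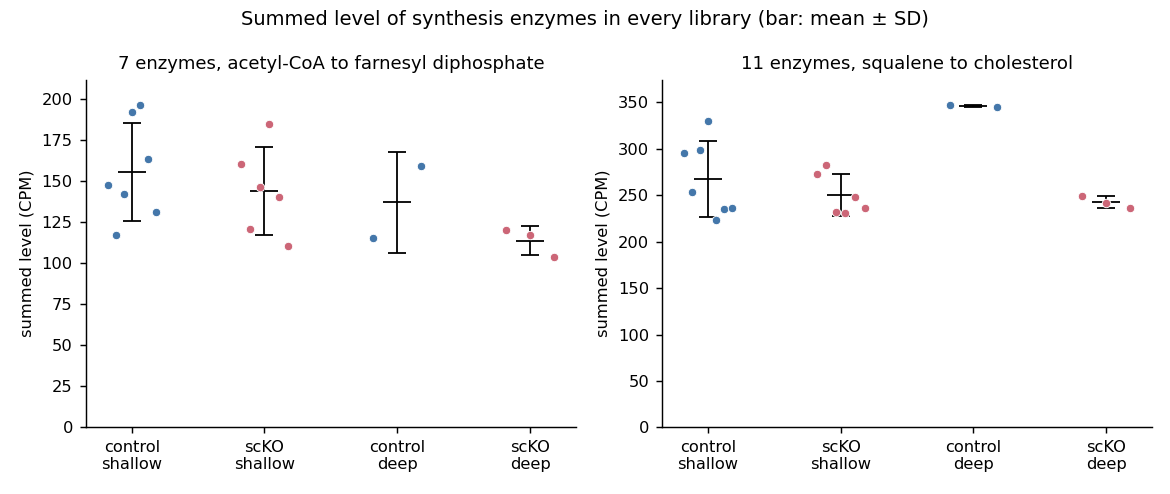
Summed level in CPM of the 7 early and the 11 late synthesis enzymes in each library (points), with the mean and SD of each group, by depth class. Late enzymes stand at 345 to 347 CPM in the deep controls and 236 to 249 CPM in deep scKO, and the other pairs of groups overlap.

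Of the 5 regulators, Insig2 rose and Insig1 fell in the deep libraries, and Srebf1, Srebf2 and Scap did not pass. Insig2, which holds SCAP in the endoplasmic reticulum, was the 1 member that rose in the model of all libraries and the 1 member whose groups were apart in both depth classes, as were 9 of 7662 genes (0.117%) in the higher direction and 4 (0.0522%) in the lower. Insig2 (ENSMUSG00000003721, chr1:121304353-121332589 on GRCm38) lay at 33.7 and 43.9 CPM in the deep controls and at 58.0, 57.8 and 59.6 CPM in deep scKO. In the shallow libraries it lay at 43.9 to 59.3 CPM (median 46.6) in controls and 66.3 to 94.6 CPM (median 76.3) in scKO. Every scKO library was thus above every control of its class.

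Insig2 rose by 0.60 on the log2 scale over all libraries (SE 0.12, edgeR adjusted p = 0.0142), which is 1.52-fold. The change was 0.56 in deep libraries (SE 0.12, edgeR adjusted p = 0.00821) and 0.60 in shallow ones (SE 0.16, edgeR adjusted p = 0.485), and the difference between them was -0.02 (95% interval -0.53 to 0.49). Both calls depended on control 1, the lowest library: without it the change was 0.56 over all libraries (edgeR adjusted p = 0.0843) and 0.39 in deep ones (edgeR adjusted p = 0.0752). With all 18 libraries Insig2 also failed to pass with a replicate block (0.60, edgeR adjusted p = 0.0612) and with the group alone, without the depth class (0.57, edgeR adjusted p = 0.280). When the 4 libraries apart from the rest were dropped it was 0.61 over all libraries (edgeR adjusted p = 0.00237). Insig2 is overlapped on the other strand by Gm37174, and the labels do not say whether counting used the strand.

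Insig1 does the same work as Insig2 and is itself a classic SREBP target, and it went the other way. It lay at 2.81 and 4.22 CPM in the deep controls and at 1.07, 2.09 and 1.24 CPM in deep scKO, on 8 to 36 counts a library. The groups did not overlap and Insig1 fell by 1.29 (SE 0.38, edgeR adjusted p = 0.0361). The call was lost without control 2 (-0.93, edgeR adjusted p = 0.303), scKO 6 (-1.10, edgeR adjusted p = 0.0848) or scKO 9 (-1.18, edgeR adjusted p = 0.0858), and by DESeq2 (adjusted p = 0.151). In the shallow libraries it had 5 counts in controls and 3 in scKO, too few to compare.

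Srebf2, which encodes the SREBP that favours the cholesterol genes, lay at 84.8 and 119 CPM in the deep controls and 83.4, 75.9 and 68.3 CPM in deep scKO. All scKO libraries were below the controls, by a narrow margin from control 1. In shallow libraries it lay at 114 to 203 CPM (median 135) in controls and 86.0 to 121 CPM (median 109) in scKO, with overlap. The log2 fold change was -0.45 in deep (edgeR adjusted p = 0.0558) and -0.41 in shallow libraries (edgeR adjusted p = 0.729), and was -0.41 over all libraries (SE 0.12, edgeR adjusted p = 0.117). Srebf2 passed over all libraries by DESeq2 (adjusted p = 0.00761). In edgeR it passed there without the 4 libraries that stood apart (-0.36, adjusted p = 0.0429). The Srebf2 gene overlaps Gm49502 over 2110 bases on the same strand, so reads may be shared between them. With 1 deep library left out, the deep change of Srebf2 ran from -0.67 (without control 1) to -0.17. Its partner Scap lay at 20.6 and 19.6 CPM in the deep controls and 19.3 to 20.2 CPM in scKO, with a 95% interval of the log2 fold change of -0.34 to 0.25. Srebf1, which encodes the SREBPs with a larger part in fatty acid synthesis, lay at 16.2 and 13.4 CPM against 15.6 to 18.9 CPM, overlapping (log2 fold change 0.23, edgeR adjusted p = 0.374).

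Among the 7 genes of transport, storage and export, Abca1 rose in the deep libraries and Stard4 and Soat1 fell. Abca1, which loads cholesterol and phospholipid onto apolipoprotein A-I (ENSMUSG00000015243, chr4:53030787-53159895 on GRCm38), lay at 1.93 and 1.88 CPM in the deep controls and at 10.4, 8.24 and 6.90 CPM in scKO 6, 7 and 9. Every deep scKO library was at more than 3 times the level of either control, on 50 to 78 counts against 11 to 16. Abca1 rose by 2.14 on the log2 scale (SE 0.29, edgeR adjusted p = 0.000595), or 4.41-fold, and kept the call in each of the 5 fits that left out a library (1.98 to 2.26). In shallow libraries it was too low for the test: 13 counts over 7 controls (1.16 to 7.19 CPM by library) and 19 over 6 scKO (0 to 7.57 CPM), with groups overlapping. Without the filter, the change was 0.66 in the shallow libraries (SE 0.58, edgeR adjusted p = 0.652), 2.15 in the deep ones and 1.66 over all libraries (edgeR adjusted p = 4.08e-05).

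Abca1 is also abundant in macrophages, so the macrophage and leukocyte markers are given beside it. Their summed level, over 8 genes, was 3.16 and 6.10 CPM in the deep controls and 5.66 to 11.6 CPM in deep scKO, and 2.33 to 16.2 and 1.13 to 17.6 CPM in the shallow groups. C1qa was at 0 in all libraries, Ptprc and Adgre1 were at 0 in the deep controls and reached 3 and 2 counts in deep scKO, and Csf1r had 3 to 24 counts in the deep controls and 10 to 67 in deep scKO. The part of such cells in the Abca1 result was not tested. Of single markers of other cell types, Fabp4 (1.33), Sox10 (1.96) and Myh11 (1.61) passed as higher in deep scKO on the log2 scale and are named for that reason, after their values were seen. Other members of the same lists lay lower there without passing, such as Cspg4 (-0.57), Rgs5 (-0.14) and Mbp (-0.37), and Sox10 was at -1.35 in shallow libraries (edgeR adjusted p = 0.800). The summed smooth muscle markers were at 196 and 200.4 CPM in the deep controls and 172 to 190.0 CPM in deep scKO.

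Abcg1, which passes cholesterol to lipoprotein particles, was the member too low to test in any fit. It had 0 and 3 counts in the deep controls and 11, 6 and 6 in deep scKO, and none in the shallow libraries, which allows up to 0.696 CPM over the controls and 0.774 CPM over scKO. The ratio of the pooled deep levels was 4.77 (95% interval 1.44 to 24.8, counting error only), so it says nothing of the spread between libraries. Mylip, whose product marks lipoprotein receptors for breakdown, lay at 30.2 and 29.3 CPM against 40.4, 37.9 and 35.8 CPM. Its groups were apart, yet a change of 0.34 on the log2 scale did not pass (SE 0.12, edgeR adjusted p = 0.0749). Abca1 was thus the 1 of these LXR targets that passed.

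Stard4, a soluble carrier of sterols between membranes, lay at 12.6 and 12.8 CPM in the deep controls and at 7.08, 7.51 and 6.21 CPM in deep scKO. Both groups were tight and apart, and Stard4 fell by 0.89 (SE 0.18, edgeR adjusted p = 0.00637), a call kept in all 5 fits that left out a library. In shallow libraries it had 44 counts over controls and 23 over scKO, below the filter. Without the filter, the change was -0.72 in the shallow libraries (SE 0.43, edgeR adjusted p = 0.652) and -0.85 over all libraries (edgeR adjusted p = 0.0244). Soat1, which esterifies cholesterol for storage, lay at 99.2 and 102 CPM against 73.1, 80.8 and 84.6 CPM in deep libraries. It fell by 0.36 (SE 0.10, edgeR adjusted p = 0.0269), a call lost without any one of control 1, control 2, scKO 6 or scKO 7 (highest adjusted p = 0.0928 in edgeR). In the shallow libraries Soat1 was at 52.5 to 95.4 CPM (median 75.5) and 53.0 to 88.2 CPM (median 72.3), with a change of -0.03 and a 95% interval of -0.42 to 0.37. Soat1 is overlapped on the other strand by Gm37648.

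Npc1 and Npc2 bring cholesterol out of the lysosome, and neither passed. Npc2 lay at 146 and 135 CPM in the deep controls and 120, 122 and 131 CPM in deep scKO, apart by a small margin (log2 fold change -0.20, edgeR adjusted p = 0.162). In shallow libraries Npc2 followed the libraries that stood apart rather than the groups: 283 to 351 CPM in control 7, 8 and 9 and 404 CPM in scKO 1, against 123 to 214 CPM in the other 4 shallow controls and 148 to 187 CPM in the other 5 scKO libraries. Npc1 was at 19.1 and 33.7 CPM in the deep controls and 26.5, 24.0 and 26.5 CPM in deep scKO, between the controls (95% interval -0.54 to 0.37). Without control 2 its deep change turned to 0.41 (edgeR adjusted p = 0.152).

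Synthesis enzymes and the other members are set side by side here, beside 7.03% of all genes lower and 7.31% higher in the deep libraries. Of 18 synthesis enzymes 13 had a negative log2 fold change (median -0.31), 5 passed lower and 0 higher (0 higher also at an unadjusted p under 0.05 in edgeR and by DESeq2 and limma-voom). The 11 regulators and transport genes tested had 7 negative values (median -0.08), with 3 passing lower and 2 higher. With all libraries and the depth class, the medians were -0.13 over 10 synthesis enzymes and 0.01 over 6 others, beside -0.01 over all genes. In shallow libraries they were -0.28 over 8 and -0.03 over 5, beside -0.02 over all genes. Whether the 2 groups of genes differ was not tested.

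Genes of neighbouring pathways were read from lists drawn up with results known. Of 19 fatty acid synthesis genes tested in deep libraries, 6 fell (31.6%, against 7.03% of all genes) and 3 rose (15.8%, against 7.31%), with a median of -0.20. Fasn, the fatty acid synthase, fell by 0.88 (SE 0.14, edgeR adjusted p = 0.00155), and the desaturase gene Fads1 by 0.68 (SE 0.11, edgeR adjusted p = 0.00182). Acaca (-0.64), Acly (-0.41), Hsd17b12 (-0.34) and Elovl5 (-0.32), which supply or lengthen fatty acids, also passed lower. Scd1, the stearoyl-CoA desaturase, rose by 0.72 (SE 0.14, edgeR adjusted p = 0.00406), Lpin1 by 0.94 (SE 0.17, edgeR adjusted p = 0.00274) and Acss2 by 0.81 (SE 0.25, edgeR adjusted p = 0.0494). In shallow libraries 14 genes of the list were tested and 0 passed in edgeR, with a median of 0.04. Fasn was at 0.004 there (SE 0.24), Fads1 at 0.30 (SE 0.17) and Scd1 at -0.32 (SE 0.24). For Fasn, Fads1 and Scd1 the difference between depth classes had an unadjusted p of 0.0270, 0.00343 and 0.00201 (edgeR adjusted p = 0.753, 0.496 and 0.440). Fasn, Fads1, Scd1 and Lpin1 kept the call in every fit that left out 1 deep library. Acly lost it without scKO 7, Acaca without control 1 or scKO 7, Hsd17b12 in all but that without control 2, Acss2 in all but that without scKO 6, and Elovl5 in all 5. Without scKO 7, 2 genes of the list passed lower and 2 higher, and without control 1, 3 and 2.

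Of 26 genes of sterol handling beyond the 30 tested in the deep libraries, 1 fell (3.85%, against 7.03% of all genes) and 5 rose (19.2%, against 7.31%), with a median of 0.03. By DESeq2, 1 was called lower and 2 higher, against 632 and 652 of 13136 genes. Tmem97, a sterol-responsive ER protein that binds NPC1, fell by 0.89 (SE 0.22, edgeR adjusted p = 0.0160). Vldlr, a lipoprotein receptor, rose by 0.96 (SE 0.15, edgeR adjusted p = 0.00135), and the others that rose were the sterol carrier gene Gramd1b (0.76), the lysosomal lipase gene Lipa (0.48), Osbp (0.46) and Erlin2 (0.39). Vldlr kept the call in all 5 fits that left out a library. In shallow libraries 20 genes of the list were tested and 0 passed in edgeR, with Vldlr at -0.01 (SE 0.29, edgeR adjusted p = 0.996). The difference between depth classes for Vldlr was 0.97 (unadjusted p = 0.00987, edgeR adjusted p = 0.570). The other calls were lost without 2 or 3 of the libraries: Tmem97 and Lipa without control 2, scKO 7 or scKO 9, Osbp without control 1 or scKO 7, Gramd1b without control 1, scKO 6 or scKO 9, and Erlin2 without control 1, scKO 7 or scKO 9. The list then held 2 to 4 genes called higher and 0 or 1 called lower. Of 12 genes that use isoprenoids for other ends, 1 passed in deep libraries (8.33%, below the 14.3% of all genes): Trit1, which adds an isopentenyl group to transfer RNA, rose by 0.44 (SE 0.11, edgeR adjusted p = 0.0185), but not without control 1 or scKO 7.

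With all 18 libraries, 0 genes passed in edgeR in these 3 lists, with medians of -0.04 for fatty acid synthesis (15 tested), 0.12 for other sterol handling (20 tested) and 0.08 for the isoprenoid branch (9 tested). At an unadjusted p under 0.05 in edgeR there were 0, 1 (Vldlr) and 1 (Trit1), against 459 lower and 451 higher of 7662 genes. By DESeq2 Vldlr and Trit1 passed as higher, against 165 of 7662 genes, and by limma-voom none did.

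Genes of DNA replication were lower in deep scKO. In deep libraries 23 of 24 S phase genes fell (95.8%, against 7.03% of all genes, median -0.74), among them Mcm5 (-0.93) and Chaf1a (-1.02), and 17 to 21 did so with 1 library left out. Over all libraries 4 of 20 fell (against 0.352% of all genes, median -0.50): Mcm5, Tyms, Tk1 and Chaf1b. Each of these 4 calls was lost in 5 to 12 of the fits that left out 1 library (highest adjusted p = 0.205 in edgeR, for Tk1). In shallow libraries 15 were tested and 0 passed in edgeR, DESeq2 or limma-voom. At an unadjusted p under 0.05 in edgeR, 216 of 6906 genes were lower, and so were 5 of these 15. All 15 were negative (median -0.38). Their summed level was 1773 and 1994 CPM in the deep controls and 1281 to 1373 CPM in deep scKO, and 1696 to 2074 CPM (median 1944) and 1202 to 1850 CPM (median 1506) in the shallow groups. The part of proliferation in the sterol results was not tested.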

How the data were processed

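RNA sequencing was read from 1 table of UMI counts per gene, deposited as raw counts per the name of the table, for 9 control and 9 scKO libraries. The submitters' processing notes list HISAT2, HTSeq and the rat build Rnor 6.0, although the identifiers are mouse Ensembl genes. Versions, annotation release, library kit and use of strand are not given in the sources used here. The highest count, 4096, is 4 to the power 6, the number of UMIs of 6 bases, and the highest count of a member was 1154 (Npc2). A symbol was paired with 50376 features from GENCODE M21 (GRCm38), and 313 without one held 0.041% of counts. Groups came from the labels, and libraries were split at 2000000 total counts. Genes were filtered with filterByExpr and scaled by TMM, and groups were compared with edgeR 4.0.16 (R 4.3.3, robust quasi-likelihood test, Benjamini-Hochberg over all genes tested, threshold 0.05) in all libraries with the depth class, in each class alone, and for the interaction. The biological coefficient of variation was 0.209, 0.253 and 0.0991 in the fits of all, shallow and deep libraries. Levels are CPM on TMM-scaled library totals, where the floor of 3 counts is 0.352 to 8.74 CPM. They are not set side by side between genes or depth classes. Poisson intervals and floors cover counting error only. Marker sums were compared by exact permutation within depth classes (17160 relabellings), with the shifts of both classes added.

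The fits were tested on simulated counts. The deep fit recovered 78 of 97 changes of 2-fold and 93 of 98 of 4-fold, and made 20 calls at unchanged genes. The shallow fit recovered 71 of 96 and 88 of 89, with 5 such calls. The fit of all libraries recovered 86 of 91 and 93 of 93, with 8 such calls. The simulation used 1 mean profile per depth class, with no ceiling on counts and no libraries that stood apart. Its rates of recovery need not hold for the real libraries. Replicate numbers were checked for pairing and did not pair the libraries. No 2 libraries agreed within sampling noise. All 30 members could be named, and from each related list the genes that passed and up to 3 others of smallest p. The members, lists, depth classes and the choice of libraries left out as standing apart were chosen with earlier results of these data known. Promoters came from RefSeq (GRCm38.p6). Alternatives were median-of-ratios scaling, no filter and a stricter one (10 counts), DESeq2 1.42.0, limma-voom (limma 3.58.1), counts corrected for UMI collisions, the group alone, a replicate block, and libraries left out.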

Additional observations from a re-analysis of the deposited data

Results flagged for a closer look

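In the 13 shallow libraries 26 groups of values were screened for a library far from the others of its group, of which chance alone flags about 1 in 20, and 2 were found. Acat2 was at 49.2 CPM in control 6, the highest of the 7 shallow controls, whose median was 19.4 CPM. Npc2 was at 404 CPM in scKO 1, the highest of the 6 shallow scKO libraries, whose median was 167 CPM. The second library is 1 of the 4 that stood apart. The cause was not tested in either case.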

How the results depend on the processing

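Among members tested over all libraries, 126 gene values stayed on their side of the threshold under the settings other than single libraries left out (the one without the 4 libraries that stood apart is counted), 8 crossed to a call and 2 lost it, and 7 changed sign. The same counts were 165, 3, 4 and 2 in deep and 88, 0, 0 and 2 in shallow libraries. The 3 that crossed to a call in deep libraries did so as lower without a filter. They were Srebf2, Acat2 and Hmgcs1 (edgeR adjusted p = 0.000911, 0.00482 and 0.0123). Over all libraries, members called lower (0) numbered 4 without a filter, 2 by DESeq2, 1 by limma-voom and 3 without the 4 libraries that stood apart, and those called higher (1) 2 without a filter and 0 with the group alone. The count over all genes (52) was 359, 390 (DESeq2), 101 (limma-voom), 22 (stricter filter), 1 (group alone) and 617 (without the 4). S phase genes called were 0 with the group alone. In shallow libraries genes called (3) were 13 without a filter, 6 by DESeq2 and 0 without the 4 in edgeR, and the median of regulators and transport genes (-0.03) was 0.16 with the stricter filter and 0.19 without the 4. In deep libraries DESeq2 called 5 members lower (8), without Idi1, Insig1 and Soat1, and limma-voom 7, without Idi1. Over all 13136 genes DESeq2 called 632 lower and limma-voom 888.

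Signs turned, with no call either way, for Acat2 (0.046 by DESeq2, 0.084 with the group alone), Ebp (0.014) and Sc5d (0.060) with the group alone, Pmvk without the 4 (0.035), shallow Soat1 without a filter (0.013), shallow Npc2 without the 4 (0.10) and deep Fdps by DESeq2 (-0.013) and with counts corrected for UMI collisions (-0.0019). The causes were not tested. The replicate numbers did not pair the libraries: correlations of same-numbered libraries ran from -0.0658 to 0.249, 5 of 9 were over 0.1, and 2 of 9 libraries correlated best with their own number. With a replicate block 14 genes and 0 members were called, with Insig2 at 0.60 (edgeR adjusted p = 0.0612), Acat2 at 0.13 and Sc5d at 0.12.

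With each library left out in turn, the fit of all libraries called 0 to 1 members lower, 0 to 1 higher and 11 (without control 1) to 216 genes (without scKO 1), the shallow fit 1 to 5 genes, and the deep fit 4 to 10 members lower, 1 to 2 higher and 996 (without scKO 7) to 1810 genes. The median of regulators and transport genes ran from -0.083 to 0.19 in the shallow fit and from -0.11 to 0.010 in the deep one. Ranges that cross 0 were, over all libraries, Acat2 -0.12 to 0.25, Pmvk -0.19 to 0.070 and Sc5d -0.12 to 0.017. In shallow libraries they were Npc2 -0.39 to 0.071, Soat1 -0.084 to 0.070 and Pmvk -0.63 to 0.0021. In deep libraries they were Mvd -0.16 to 0.018, Npc1 -0.42 to 0.41, Hsd17b7 -0.12 to 0.23, Pmvk -0.073 to 0.30, Ebp -0.27 to 0.028 and Fdps -0.29 to 0.27. Leaving out a deep control leaves 1 control, assumed to vary like the other group. Depth limits the shallow class, where 17 members were too low for the test.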
